A study of Caenorhabditis elegans with 2 samples.

Results

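Intronic binding regions of FLT-1 outside promoters were examined in embryos of the nematode Caenorhabditis elegans. They numbered 462 of the 2520 nuclear regions, or 18.3% (95% Wilson interval 16.9 to 19.9). A region is 1 peak, or several overlapping peaks merged, of the authors' conservative thresholded list. It was kept when the summit of its strongest peak lay inside a protein-coding gene but in no exon of one. Summits from 1000 bp upstream to 200 bp downstream of any protein-coding gene start were left out, as were summits within 200 bp of a tRNA, snoRNA, snRNA or miRNA gene. Signal strength and sequence played no role in that choice beyond the authors' own threshold.

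The study profiled FLT-1 by chromatin immunoprecipitation and sequencing (ChIP-seq) with an anti-GFP antibody. The strain, RW12255, has the allele st12255, in which flt-1 is fused to TY1, EGFP and 3xFLAG. Its 1 group consisted of 2 biological replicates of whole mid-embryos obtained by egg bleaching, labelled 1 hour of age, with chromatin of 200 to 800 bp. All embryos came from that strain and no untagged strain, mutant or input list was analysed here, so all comparisons are between places in the genome. Whole embryos mix all tissues, and a region present in a few cells cannot be told apart from a weak one in many. The tagged gene is now named baz-2 and encodes a bromodomain protein of the BAZ2 family, whose relatives in other animals work with ISWI chromatin remodellers.

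Introns are removed from the transcript by splicing. Most C. elegans introns are very short, while the longer ones can hold enhancers, start sites of shorter isoforms and whole genes for noncoding RNAs. Genes such as those for tRNAs and the RNA of RNase P are read by RNA polymerase III, for which the B box inside a tRNA gene is a promoter element.

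Several of the strongest intronic regions lay on nested genes for noncoding RNA or on repeats. Sequences of the summit with 50 bp on either side are shown to let these features be seen. They were read from the RefSeq WBcel235 genome on the strand of the host gene. In the first pair the capitals mark the B box. The third sequence comes from a pair of overlapping noncoding RNA genes and has no exact match to the pattern searched. Inexact matches were not searched for, and a stretch near the end of the third sequence resembles the marked boxes. Whether that stretch acts as a B box was not tested.
unc-104 (chrII:7001594-7001694, + strand): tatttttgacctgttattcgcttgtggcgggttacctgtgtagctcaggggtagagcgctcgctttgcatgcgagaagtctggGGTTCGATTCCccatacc
Y57G11C.22 (chrIV:14838320-14838420, + strand): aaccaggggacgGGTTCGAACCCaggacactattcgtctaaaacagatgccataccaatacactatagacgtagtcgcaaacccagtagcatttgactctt
tba-7 (chrIII:11371413-11371513, - strand): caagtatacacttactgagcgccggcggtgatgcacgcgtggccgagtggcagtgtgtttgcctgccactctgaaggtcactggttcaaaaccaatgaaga

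The next pair comes from noncoding RNA genes, and the capitals mark the longest stretch of 34 bases that the windows share when 1 of them is reversed and complemented. Reads from a shared stretch can be misplaced, so the share of signal belonging to each place is uncertain. The genes were not compared beyond these windows.
klp-6 (chrIII:5031594-5031694, + strand): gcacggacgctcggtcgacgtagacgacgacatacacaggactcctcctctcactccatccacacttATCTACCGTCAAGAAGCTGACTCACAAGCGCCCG
ckb-2 (chrIII:4369436-4369536, + strand): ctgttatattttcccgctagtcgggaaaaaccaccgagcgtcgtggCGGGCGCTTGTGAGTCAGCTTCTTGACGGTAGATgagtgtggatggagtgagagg

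Of the following pair, the cmk-1 sequence has its most frequent 10-base word in capitals, which occurs 4 times. The max-2 sequence has in capitals the arms of its longest inverted repeat, 23 bases each.
cmk-1 (chrIV:1831330-1831430, + strand): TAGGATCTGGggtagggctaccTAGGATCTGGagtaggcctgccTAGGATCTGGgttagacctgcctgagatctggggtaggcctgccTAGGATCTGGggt
max-2 (chrII:13016556-13016656, - strand): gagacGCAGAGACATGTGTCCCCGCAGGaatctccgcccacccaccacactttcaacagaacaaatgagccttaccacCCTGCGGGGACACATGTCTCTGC

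The last set shows a motif found at many intronic regions, in 4 of the strongest regions with a GAGAGA motif inside the printed window, in capitals on either strand.
mdt-26 (chrII:5661785-5661885, + strand): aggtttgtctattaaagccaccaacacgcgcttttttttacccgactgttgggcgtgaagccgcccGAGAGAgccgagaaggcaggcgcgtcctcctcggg
larp-1 (chrIII:5014106-5014206, - strand): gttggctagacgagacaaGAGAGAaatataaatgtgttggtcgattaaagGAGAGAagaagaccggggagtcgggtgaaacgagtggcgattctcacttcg
col-72 (chrII:3523706-3523806, - strand): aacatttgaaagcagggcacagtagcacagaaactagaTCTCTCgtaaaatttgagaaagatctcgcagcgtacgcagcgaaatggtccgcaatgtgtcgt
zfp-1 (chrIII:8800361-8800461, + strand): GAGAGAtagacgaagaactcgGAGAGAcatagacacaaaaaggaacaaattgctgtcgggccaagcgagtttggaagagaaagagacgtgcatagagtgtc

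The strongest region of all lay in intron 5 of unc-104, the kinesin that carries synaptic vesicle precursors. Its signal, the value the authors' peak caller gave a peak, was 275 in replicate 1 and 242 in replicate 2, with 531 in the pooled list. The region runs from 7001538 to 7001747 on chromosome II (WBcel235), and the tRNA pseudogene C52E12.t1 occupies 7001627 to 7001698. The B box in the sequence above lies inside that pseudogene, which is annotated apart from working tRNA genes. Both replicates were far above the medians of all intronic regions, 50.9 in replicate 1 and 37.97 in replicate 2.

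Intron 1 of tba-7, an alpha-tubulin gene on chromosome III, had 206 in replicate 1 and 216 in replicate 2. Its summit lay in the noncoding RNA genes T28D6.15 and T28D6.13, of 186 and 76 bp, which lie on opposite strands. Intron 5 of ints-8 on chromosome I, which encodes an Integrator subunit, had 249 in replicate 1 and 178 in replicate 2. There the summit lay in rpr-1, a gene of 253 bp for the RNA of RNase P, the enzyme that trims tRNA precursors.

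Intron 2 of klp-6, a kinesin gene, had 230 in replicate 1 and 110 in replicate 2 at the noncoding RNA gene srpr-2.2. Intron 7 of ckb-2, a choline kinase gene, had 181 in replicate 1 and 127 in replicate 2 at srpr-1.2. Both RNA genes are 299 bp long, and RefSeq lists them as unclassified noncoding RNAs. With W01D2.3, whose summit lay in the 78 bp gene W01D2.8 and which had 126 in replicate 1 and 76.3 in replicate 2, 5 of the 20 strongest intronic regions lay in an annotated noncoding RNA gene, against 33 of the other 442.

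Intron 2 of cmk-1, the calcium/calmodulin-dependent kinase CaMKI, had 151 in replicate 1 and 209 in replicate 2 on the tandem repeat. Intron 11 of max-2, a p21-activated kinase gene, had 122 in replicate 1 and 119 in replicate 2 on the inverted repeat. In Y32F6A.5, which had 123 in replicate 1 and 128.7 in replicate 2, the summit and 100 bp on either side are wholly soft-masked as repeats in the RefSeq genome. The same held for both strong regions in intron 1 of tir-1, a gene for a TIR-domain adaptor of innate immunity. The first had 109 in replicate 1 and 145 in replicate 2, and the second had 124 in replicate 1 and 98.0 in replicate 2. Over all 462 regions 20 were wholly masked. How reads from repeats were aligned is not stated in these sources, and its part in these signals was not tested.

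The remaining regions among the 20 strongest had other settings. Intron 1 of mdt-26, a Mediator subunit gene, had 219 in replicate 1 and 135 in replicate 2. Intron 7 of mom-1, which encodes the Wnt-modifying enzyme porcupine, had 171 in replicate 1 and 93.4 in replicate 2. Intron 2 of Y57G11C.22 had 157 in replicate 1 and 130 in replicate 2 beside its B box, and intron 9 of scc-2, the cohesin loader, had 126 in replicate 1 and 111 in replicate 2. The others were in K05C4.2, T24H10.5, Y67D8A.2, srt-52 and Y41G9A.17, with 119 to 219 in replicate 1 and 87.3 to 154 in replicate 2.

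The strongest regions were also narrower. The peak was 296 bp wide in 443 of the 462 regions, and 18 of the 19 narrower ones, of 80 to 267 bp, were among the 20 strongest. All 20 were in each replicate's own thresholded list, against 54 (12.2%) of the other 442. Since the signal ranks both, this is a description of strength.

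**Figure D1:**
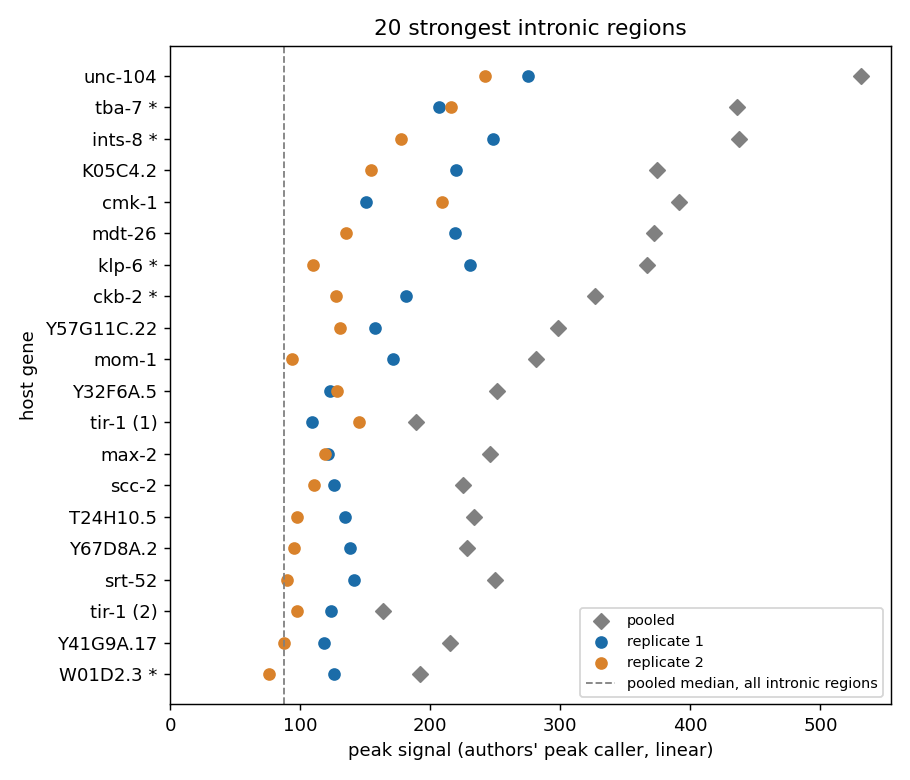
Peak signal of the 20 strongest intronic regions, ordered by the mean log2 signal of the replicates. Grey diamonds are the pooled list, blue and orange points the replicates. Asterisks mark summits in an annotated noncoding RNA gene, and the dashed line is the pooled median of all 462 regions, 87.4. The pooled value of unc-104 was 531.

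Noncoding RNA genes held more intronic regions than their length alone would give. Of the 462 summits 38 (8.23%, Wilson interval 6.05 to 11.1) lay in an annotated ncRNA gene, a class that covers 1.07% of the available intronic sequence. Available sequence means the 30.3 Mb inside protein-coding genes that passes the same exclusions as the regions. The density was 117 regions per Mb in ncRNA genes and 14.1 per Mb in the rest, a ratio of 8.28 (exact binomial interval 5.78 to 11.6). With replicate 1's thresholded list it was 8.61, from 19 summits, and with replicate 2's 11.5, from 14. Median pooled signal was 97.5 at these 38 regions and 86.9 at the others. Some 2736 ncRNA genes reach into available intronic sequence, so nearly all of them had no region. No summit lay in a piRNA gene, with a Wilson upper bound of 0.825%, and piRNA genes cover 0.273% of the sequence.

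Introns made up a smaller share of regions than of the genome. They held 18.3% of the regions and 30.2% of the nuclear genome, which is 15.2 regions per Mb, against 44.8 per Mb in promoters, 19.8 per Mb in intergenic sequence and 9.37 per Mb in exons. Median pooled signal was 87.4 (interquartile range 75.9 to 109) in introns, 104.4 in promoters, 90.1 in intergenic regions and 79.6 in exons. The intronic median was 0.836 times the promoter median in the pooled list, 0.843 times in replicate 1 and 0.864 times in replicate 2. Against intergenic regions it was 0.970 times pooled, 0.970 in replicate 1 and 0.9498 in replicate 2. How the signal was scaled is not stated, so it only ranks peaks within 1 list.

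Of the 462 intronic regions 37.4% were in the own list of replicate 1 and 22.9% in that of replicate 2. Both replicates' own lists held 74 (16.02%, Wilson interval 13.0 to 19.6), while 257 (55.6%) were in neither. Of promoter regions 35.8% were in both and 37.9% in neither. Of intergenic regions 23.1% were in both and 46.5% in neither, and of exonic regions 4.17% and 77.8%. Replicate 1 had the higher signal at 393 of the 457 intronic regions with a peak in both ranked lists. This was not particular to introns. Replicate 1's median was 60.4 and replicate 2's 43.9 in promoter regions, 52.5 and 39.97 in intergenic regions, and 46.9 and 34.3 in exonic regions. Signals of different lists have no stated common scale, so the count does not compare binding between replicates. Of the 116 regions with the highest pooled signal 60 were in both own lists, and of those with a pooled signal of 75.8 or less there were 0.

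Longer introns had a higher density of regions. Introns over 1000 bp, called long, held 331 regions at 22.8 per Mb, and short introns held 131 at 8.28 per Mb. The ratio was 2.76 (exact interval 2.25 to 3.40), with 2.54 (1.90 to 3.44) in the own list of replicate 1 and 3.49 (2.30 to 5.45) in that of replicate 2. In the combined list density climbed through every length class: 1.24 regions per Mb up to 100 bp, 4.25 to 250 bp, 8.43 to 500 bp, 11.6 to 1000 bp, 14.04 to 2000 bp, 26.5 to 5000 bp and 34.1 above 5000 bp. The replicates' own lists did not climb throughout. Over 100 to 250 bp and over 250 to 500 bp, replicate 1 had 4.78 and 3.98 per Mb, and replicate 2 had 2.65 and 1.87. Replicate 1 was highest above 5000 bp, at 18.8 per Mb, while replicate 2 had 9.81 over 2000 to 5000 bp and 6.26 above. Regions in long and short introns had near-equal signal, with a ratio of medians of 1.03 pooled, 1.05 in replicate 1 and 1.02 in replicate 2. Counted once per region, the median host intron was 2114 bp long, against 82 bp over all introns with available sequence.

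Counted per intron, 409 of 89903 introns with available sequence (0.455%) held a region. The share was 18.2% (79 of 435; Wilson interval 14.8 to 22.1) above 5000 bp and 0.00634% (3 of 47330) up to 100 bp. Host genes followed the same order. Of genes with over 10000 bp of available intronic sequence 23.6% (108 of 458) held a region, against 0.298% (30 of 10083) of those with up to 1000 bp.

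First introns also had a higher density than later ones, by less. They held 130 regions at 20.8 per Mb, and later introns held 332 at 13.8 per Mb. The ratio was 1.51 (1.22 to 1.85), with 1.62 (1.196 to 2.17) in replicate 1's list and 1.66 (1.11 to 2.46) in replicate 2's. First introns are longer, with a median of 268 bp against 68 bp for later ones, and 13.6% of them are long, against 7.06%. Within length classes the difference was not detectable in the classes that hold most regions. The first-over-later ratio was 1.35 (0.913 to 2.01) above 5000 bp, with 0.985 in replicate 1 and 1.38 in replicate 2. It was 0.841 (0.547 to 1.26) over 2000 to 5000 bp, with 1.22 in replicate 1 and 0.951 in replicate 2. It was 1.08 (0.594 to 1.85) over 1000 to 2000 bp and 0.963 (0.511 to 1.70) over 500 to 1000 bp. Shorter classes had at most 8 regions in first introns. In the class over 250 to 500 bp the ratio was 1.53 (0.604 to 3.46), but 6.04 (2.07 to 17.99) in the own list of replicate 1, from 9 and 8 regions. Signal did not follow intron order: the ratio of medians was 1.03 pooled, 1.08 in replicate 1 and 0.995 in replicate 2.

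**Figure D2:**
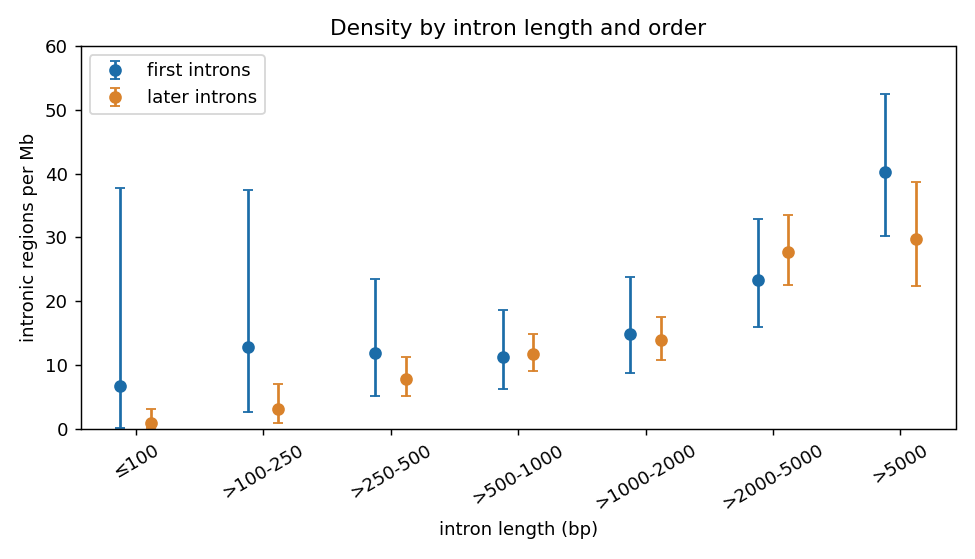
Intronic regions per Mb of available sequence by intron length, for first (blue) and later (orange) introns, with exact 95% Poisson intervals that cover counting error only. In this combined list density is highest above 5000 bp, at 40.2 per Mb in first and 29.7 per Mb in later introns. The intervals overlap in every class, and in replicate 2's own list the highest class was 2000 to 5000 bp.

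Outside the promoter windows, regions were not concentrated toward the gene start. Those windows, at 44.8 regions per Mb, were left out by rule, so the nearest class is what remains beside them. Distance classes were not matched for intron length, with which density also climbed. Density was 10.04 per Mb within 1000 bp of the start, 10.09 to 2000 bp, 16.8 to 5000 bp, 18.5 to 10000 bp and 23.4 farther away. The last step was absent from the replicates' own lists, where the densities over 5000 to 10000 bp and farther away were 10.7 and 8.56 per Mb in replicate 1 and 4.87 and 3.78 in replicate 2. Replicate 2's list had 3.45 per Mb within 1000 bp, so its farthest and nearest classes were close. The median distance from the gene start was 3789 bp and from the nearest exon 472 bp. The 5′ part of the intron held fewer regions. With each intron cut into 3 equal stretches, 25.1% of regions lay in the 5′ stretch, against 32.3% of available sequence. The middle stretch had 40.04%, against 33.8%, and the 3′ stretch 34.8%, against 33.8%.

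Annotated transcript starts that differ from the start of their gene, called internal, were more often close. They did not have to belong to the host gene or lie at any least distance from the gene start. From 1000 bp upstream to 200 bp downstream of an annotated internal transcript start of a protein-coding gene lay 105 regions (22.7%, Wilson interval 19.1 to 26.8), against 10.9% of available sequence. The density was 31.9 per Mb within these windows and 13.2 per Mb outside, a ratio of 2.41 (1.92 to 3.01), with 2.37 in replicate 1's list and 3.15 in replicate 2's. The median signal in the windows was 1.00 times that outside. Chromosomes differed less: 20.5 per Mb on III, 18.4 on II, 15.3 on I, 15.2 on X, 11.8 on IV and 11.5 on V. The X-to-autosome ratio was 0.993 (0.767 to 1.27), with 0.832 (0.553 to 1.21) in replicate 1's list and 0.993 (0.590 to 1.60) in replicate 2's.

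The DNA at intronic summits was richer in G and C than introns in general. Median GC content within 100 bp of the summit was 47.3% (interquartile range 42.3 to 51.7) at the regions and 31.8% in 116987 windows of the same length tiled over available intronic sequence. It was 48.3% in each replicate's own list. Promoter regions had 44.3% and intergenic regions 46.8%, so the GC content was not peculiar to introns. It was local: on the side of higher genome coordinates mean GC was 49.9% within 25 bp of the summit and 37.2% near 500 bp.

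**Figure D3:**
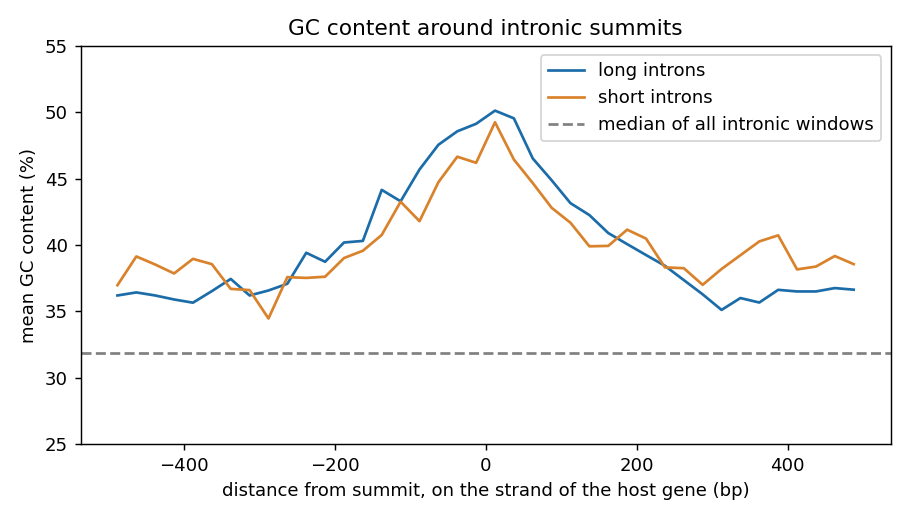
Mean GC content in bins of 25 bp within 500 bp of intronic summits, for long (blue) and short (orange) introns. Distance increases with genome coordinate, and not along the strand of the host gene as the axis label has it. The dashed line is the median of all intronic windows, 31.8%. The curves are means that also take in exon bases within 500 bp, so their distance from the line is not like for like. Both curves are highest at the summit, at 50.1% in long and 49.3% in short introns.

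Density followed GC content closely. Among the 404 regions whose window is wholly intronic, 252 (62.4%) had over 45% GC, as did 6.11% of all windows. There were 0.118 regions per 1000 windows up to 25% GC, 7.11 over 40 to 45%, 51.9 over 50 to 55% and 144 above 60%. Within the windows over 45% GC long introns had 43.6 regions per 1000 windows and short ones 19.2, a ratio of 2.27 (1.64 to 3.18). First introns had 50.1 and later ones 30.9, a ratio of 1.62 (1.23 to 2.13). First introns are longer, and intron length was not matched within the GC ranges. Up to 45% GC the long-over-short ratio was 1.71 (1.19 to 2.47) and the first-over-later ratio 0.809 (0.520 to 1.22). The long-intron difference was therefore present in both GC ranges. GC content affects how DNA is amplified and sequenced, and without an input list its part in the signal was not tested.

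**Figure D4:**
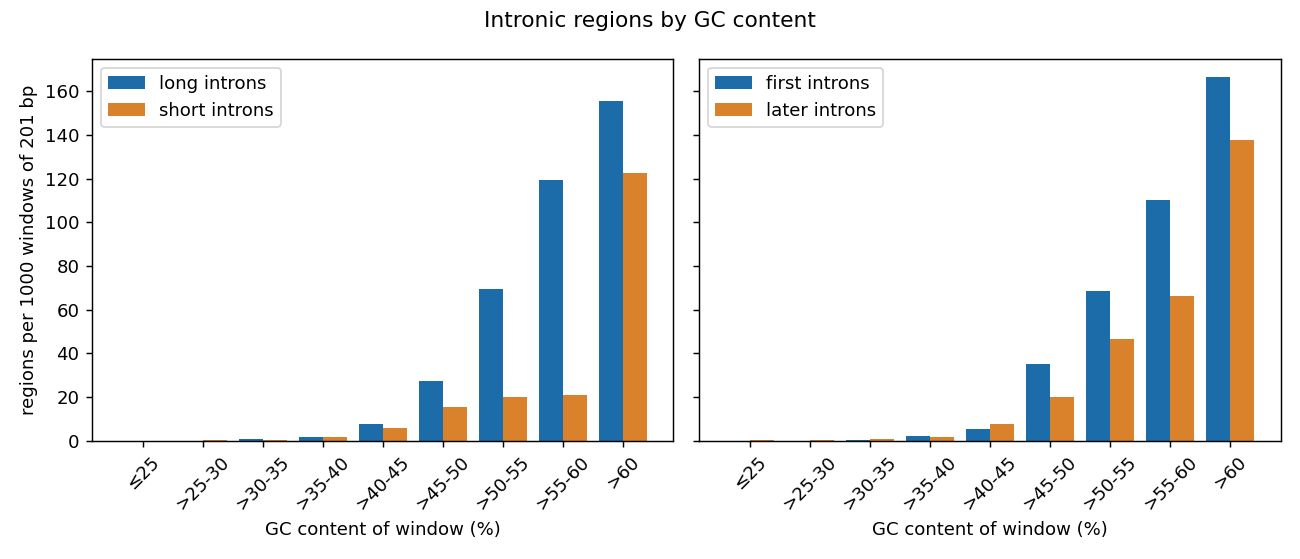
Intronic regions per 1000 equal windows by GC content, for long and short introns (left) and first and later introns (right). Bars for long and first introns are the taller ones in every bin above 45% GC. Above 60% GC they rest on 20 regions in 139 windows. First and later introns are not matched for length.

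The GAGAGA motif, in the last set of sequences, was the most frequent of the motifs searched. Counted on both strands, it was within 100 bp of 153 summits (33.1%, Wilson interval 29.0 to 37.5) and in 8.32% of all intronic windows. Among those of 40 to 55% GC it was at 36.02% of regions and in 16.6% of windows. That range does not equalise GC content, with a median of 47.8% at its regions and 43.3% in its windows. The share was 34.1% in replicate 1's own list and 28.6% in replicate 2's. Promoter regions had it at 32.99% and intergenic regions at 40.4%. Regions in long introns had it at 38.1% and those in short introns at 20.6%, and first introns at 38.5% and later ones at 31.0%. The windows differed the same way: 10.1% of long-intron and 5.84% of short-intron windows had it, as did 9.82% of first-intron and 7.88% of later-intron windows.

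The run TTTTTTTT was rarer at regions, at 7.79% against 33.8% of windows. Between 40 and 55% GC the shares were 7.45% and 11.1%. CACGTG was at 4.33% of regions and in 2.71% of windows, but at 4.66% and in 5.77% between 40 and 55% GC. AGATAA was at 7.58% of regions and in 11.2% of windows, and at 6.83% and in 7.68% in that GC range. TGACTCA was at 1.30% of regions and in 1.57% of windows. The B box was at 5 regions (1.08%) and in 0.387% of windows. Between 40 and 55% GC it was at 1.55% of regions (Wilson interval 0.665 to 3.58) and in 0.897% of windows. A TGACTCA match lies in the stretch shared by the klp-6 and ckb-2 windows, so those matches are not independent. These matches are letters in a window and show no factor. Soft-masked repeats covered a median of 16.7% of the window at regions and 51.7% over all windows.

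Several genes held clusters of regions. Of the 370 host genes 66 held at least 2, with 158 regions between them, and 44 introns held at least 2. Of these, 6 genes held 4 or more.

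lit-1, the Nemo-like kinase of the Wnt/beta-catenin asymmetry pathway, had 6, none in its first intron. The strongest lay in intron 6, at 15774 bp from the gene start, with 102 in replicate 1 and 64.8 in replicate 2. The weakest, in intron 8, had 43.7 in replicate 1 and 28.6 in replicate 2. The GAGAGA motif was at 4 of the 6.

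cdc-25.2, which encodes a CDC25 phosphatase that activates cyclin-dependent kinases, had 5 regions, 4 of them in its first intron of 10579 bp. That intron follows an exon of a transcript not labelled protein-coding. The first exon of the gene's protein-coding transcripts starts at 10615 bp, and these 4 summits, at 3724 to 10414 bp, lie upstream of it. Over the 5 regions replicate 1 ranged from 38.6 to 58.1 and replicate 2 from 31.3 to 43.7. pqn-41, a polyglutamine-repeat gene, had all 4 of its regions in intron 15, of 7770 bp. They had 70.6 to 98.8 in replicate 1 and 34.2 to 55.1 in replicate 2.

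ptp-3, a LAR-type receptor phosphatase of axon guidance and synapse formation, had 4 regions in introns 16 to 23, with 41.8 to 54.8 in replicate 1 and 30.8 to 42.9 in replicate 2. zfp-1, the homolog of the chromatin protein AF10, had 4 regions in introns 5, 10 and 11, and GAGAGA at all 4. Its strongest had 72.5 in replicate 1 and 72.99 in replicate 2. mnk-1, a MAP kinase-interacting kinase gene, had 4 in introns 1, 3 and 4, the strongest with 87.7 in replicate 1 and 61.5 in replicate 2, and was the only 1 of the 6 that also had a promoter region.

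**Figure D5:**
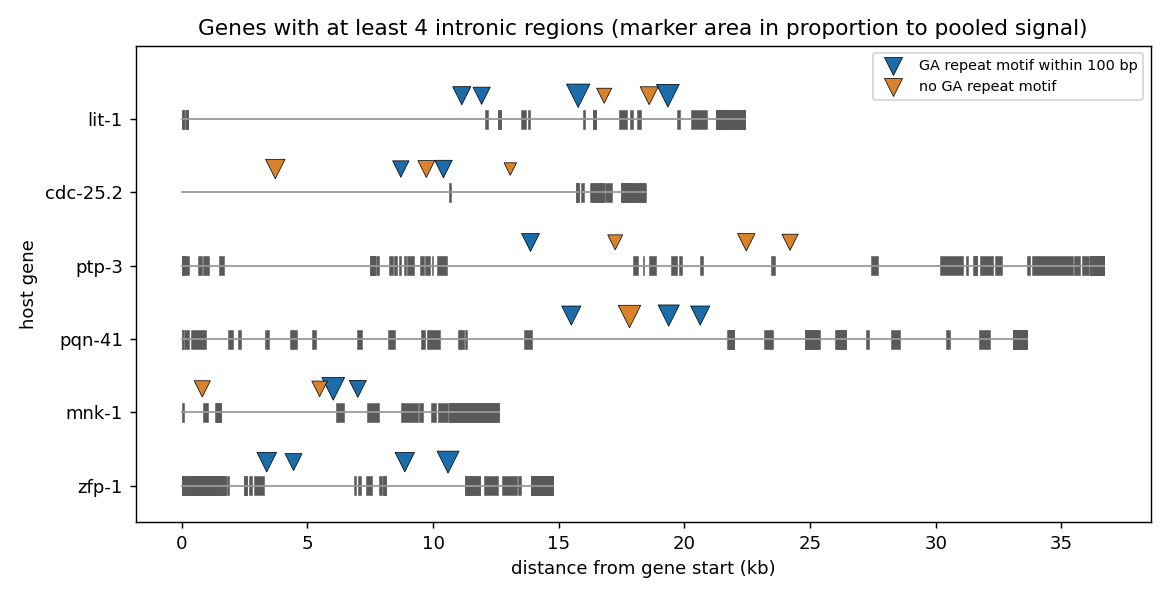
The 6 genes with at least 4 intronic regions, drawn from the gene start in kb, with exons of protein-coding transcripts as dark boxes. The exon before the first intron of cdc-25.2 is therefore not drawn. Triangles are region summits with an area in proportion to pooled signal, blue where the GA repeat motif lies within 100 bp. The 6 summits of lit-1 lie 11143 bp or more from its start.

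A promoter region of the same gene was present for 44 of the 370 host genes (11.9%, Wilson interval 8.98 to 15.6) and for 6.18% of the 16816 other genes with available introns. Among genes with over 10000 bp of intronic sequence the shares were 3.70% of hosts (4 of 108) and 5.14% of others. In the 4 classes of genes with less intronic sequence the share was higher in hosts, from few genes each. It was 15.2% (15 of 99) and 8.28% over 5000 to 10000 bp, and 13.95% (12 of 86) and 7.65% over 2000 to 5000 bp. It was 17.02% (8 of 47) and 5.48% over 1000 to 2000 bp, and 16.7% (5 of 30) and 5.90% up to 1000 bp.

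Gene groups of development were compared by the share of members with an intronic region, beside 2.15% of all 17186 genes with available introns. In no list were the members matched for intron length, and the list medians of available sequence run from 278 bp to 6097 bp. Axon guidance and adhesion genes had 7 of 44 (15.9%, Wilson interval 7.93 to 29.4), with 14 regions at 34.5 per Mb against 15.2 per Mb for all genes. Their median gene has 6097 bp of available intronic sequence, against 749 bp over all genes, and both the share and the density climb with intron length, so neither compares the genes at equal length. Of all genes with over 5000 to 10000 bp, 10.5% (99 of 944) held a region. In the replicates' own lists the density was 9.85 per Mb for these genes, against 7.36 for all, in replicate 1 and 4.92, against 4.16, in replicate 2, from 4 and 2 regions. The strongest was in hmr-1, the classical cadherin, with a pooled signal of 132, followed by vab-2, an ephrin, with 113, and ptp-3 with 98.6.

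Genes of Wnt, Notch, TGF-beta, FGF and EGF signalling had 4 of 52, with 10 regions at 54.3 per Mb, 6 of them in lit-1. Replicate 1's list had 6 regions at 32.6 per Mb and replicate 2's had 4 at 21.7 per Mb. The others of the 10 were in mom-1, in cam-1, a ROR-type receptor, with 110, and in lag-1, the Notch effector CSL, with 97.8. Epidermal and cuticle genes had 3 of 26, with 5 regions: ajm-1, an apical junction gene, had 3 of up to 110, and the nuclear receptor genes nhr-25 and nhr-23 had 97.8 and 72.0. Basement membrane genes had 3 of 21: let-2, a type IV collagen chain, had 99.3, the syndecan sdn-1 had 84.2 and the glypican lon-2 had 78.4.

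Cell fate transcription factor genes had 4 of 66, zag-1, fkh-7, vab-7 and unc-42, of which fkh-7 was strongest at 107. Synaptic genes had 2 of 29, unc-104 and unc-26 at 75.6, and muscle genes 2 of 35, dys-1, the dystrophin gene, at 93.6 and unc-60 at 82.9. Ion channel genes had 1 of 40 (2.50%, Wilson interval 0.443 to 12.9), the innexin unc-7 at 78.3, at a density of 3.20 regions per Mb over 0.313 Mb. Their median gene has 5217 bp of available intronic sequence, and of all genes with over 5000 to 10000 bp 10.5% held a region. Chromatin regulators had 1 of 55, zfp-1, and 3 in the other thresholded list. A promoter region was present for 18 of the 55 (32.7%), against 6.31% of all genes. Actin and polarity genes had 1 of 36, par-1 at 55.5, and 11 of the 36 genes (30.6%) had a promoter region. Germline genes had 1 of 21, mex-3 at 69.7, and intestine genes 0 of 16 (Wilson upper bound 19.4%), which have 0.0313 Mb of intronic sequence in all. Every list had at most 14 regions, and their signals outside unc-104 and mom-1 lay between 55.5 and 168.

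The share of ranked regions that passed the threshold differed between classes. The authors' ranked list, which goes far below their threshold, holds 27122 intronic regions after the same merging, of which 1.70% (Wilson interval 1.56 to 1.86) passed. Of all 81072 ranked nuclear regions 3.11% passed, with 5.81% of promoter, 2.81% of intergenic and 1.13% of exonic ones. Among intronic ones 2.32% passed in long and 1.02% in short introns, and 2.44% in first and 1.52% in later introns. Ranked regions themselves were spread more evenly, with density ratios of 1.21 for long over short and 0.944 for first over later introns. The share that passed was 0.0677% up to 25% GC and 32.4% above 60%.

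The threshold is an irreproducible discovery rate (IDR) of 0.01, or 2 as −log10. Just inside it were regions in K09C6.9 at 2.002 with a pooled signal of 57.7, din-1 at 2.003 with 79.3 and unc-42 at 2.004 with 73.2. Just outside were cutl-4 at 1.99997 with 65.9, mau-8 at 1.996 with 69.2 and lgg-2 at 1.995 with 82.6. Members near the threshold thus overlapped nonmembers in signal.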

How the data were processed

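FLT-1 ChIP-seq peaks were measured in 2 biological replicates of 1 group. The authors deposited peak lists in ce11 (the same assembly as WBcel235), per the labels. These come from filtered alignments with a control file, per the deposited file descriptions. No source used here gives the aligner or peak caller, and the depth per sample is unknown. The deposited signal is a per-peak value from the authors' peak caller, and the ranked lists also give −log10 of the IDR. The replicate signal of a region is that of the highest overlapping peak, by at least 1 bp, in the replicate's ranked list.

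Regions, introns and available sequence were computed with Python 3.11.15 (pandas 2.3.3, NumPy 2.4.6, SciPy 1.17.1) from Ensembl release 115. An intron is a stretch of a gene in no exon of any protein-coding gene, numbered from the gene start, and a base in several introns goes to the shortest. Shares have Wilson and density ratios exact binomial 95% intervals, which cover counting error only and treat regions as independent. With 1 condition, no test was made. The computation of density ratios was tested on simulated data. The members, the 12 gene lists and the alternatives were chosen with earlier results of these data known. Named genes are the hosts of the 20 strongest regions by mean log2 signal, genes with at least 4 regions and up to 3 strongest members of each list. Other host genes named were chosen after their values were seen.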

Additional observations from a re-analysis of the deposited data

How the results depend on the processing

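No paired analysis was possible because the design has 1 group. Leaving out a replicate meant using the other's own thresholded list. Across these the number of intronic regions ranged from 126 to 223, their share from 11.4% to 15.02%, the long-over-short density ratio from 2.54 to 3.49, the median signal relative to promoters from 0.839 to 0.860, and the internal-start ratio from 2.37 to 3.15. The GC difference from all intronic windows, 15.4 percentage points in the main analysis, was 16.4 with either replicate left out, and the GAGAGA share ranged from 28.6% to 34.1%.

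An IDR of 0.001 or less left 122 regions, 11.4% of all, with median signal 0.927 times that of promoters and 1.04 times that of intergenic regions, above 1 where the main value was below; the cause was not tested. Relative to promoters the median was 0.855 in the other thresholded list, 0.796 and 0.873 with promoters starting 500 bp (to +100 bp) or 2000 bp upstream, 0.875 with promoters at every transcript start and 0.864 in replicate 2 alone, where it was 0.9498 relative to intergenic regions. The share was 14.2% with promoters at every transcript start and 16.6% with exons of every biotype. With long introns defined as over 500 bp the ratio was 3.49. Windows of 50 bp on either side gave a GC difference of 17.8 and GAGAGA at 18.8% of regions. The first-over-later ratio stayed between 1.45 and 1.74 under all alternatives run. Of the 12 gene lists, 5 changed by more than 1.5 times in the other thresholded list, each holding at most 3 host genes in either list. Introns cut by own exons only, the left-out noncoding RNA summits, and the left-out replicates for GC, GAGAGA and internal starts were chosen after seeing the data. Unknown depth limits all calls in single replicates.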

Other observations

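The ranked list has 6 intronic regions past the threshold that are not in the conservative list, in usp-39, str-222 (3 regions) and Y18H1A.14 (2 regions), with pooled signals of 71.1 to 205. The tRNA pseudogene margin held 2 summits, that of unc-104 and 1 in C33A11.2, with 54.5 in replicate 1 and 33.6 in replicate 2. Of the 5 regions with a B box, 2 were in Y69A2AR.31 and 1 in hpo-38. Summits within 50 bp of an exon numbered 23, and 5 summits lay inside more than 1 gene.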
